A study of Mus musculus with 27 samples.

Results

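The Runx1 ChIP-seq of control mK4 cells gave 10187 peaks, and 3653 of them (35.9%) overlapped no Runx2 peak by even 1 bp, either in the Runx2 list of control cells or in that of Runx1KO cells. These 3653 regions are called Runx1-only peaks here. They were chosen by the positions of called peaks alone, from the 3 ChIP-seq peak lists. Having no Runx2 peak means that none was called, and Runx2 reads at these regions were not counted here. The paper proposes that at many of the weaker Runx1 peaks Runx2 signal fell slightly short of being called. Of the other Runx1 peaks, 5198 overlapped Runx2 in both lines, 1103 in control cells alone and 233 in Runx1KO cells alone. The mK4 line is a mouse cell line from kidney metanephric mesenchyme, the embryonic tissue that gives rise to nephrons. The study compared unmodified mK4 cells (control) with Runx1KO cells, in which a pair of guide RNAs removed exon 3 of Runx1, and with ZebDKO cells, in which exon 2 of Zeb1 and exon 1 of Zeb2 were targeted. All were grown in medium with 10% serum, with no treatment described for the assays. The knockout lines had earlier been transfected with CRISPR vectors and selected with puromycin, a step not described for control cells. Each of 9 groups held 3 samples: RNA-seq of the 3 lines, ATAC-seq of control and Runx1KO cells, and ChIP-seq with a Runx1 antibody and with a Runx2 antibody in control and Runx1KO cells. Both knockout lines were grown from picked clones, and since the number of clones sequenced is not given in the sources used here, clone and genotype cannot be told apart.

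Runx1 and Runx2 are DNA-binding proteins of the Runt family, which bind the same short sequence, TGTGGT or its complement ACCACA, together with their partner Cbfb. Runx1 is best known from blood formation, and Runx2 from bone, and many cells contain both. Much of the mouse genome consists of sequences present in many copies, such as transposable elements and short tandem repeats, and a short read from such a sequence can come from any of its copies.

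Sequences of the Runx1-only peaks showed what most of them were made of, so representatives are printed first, each as 150 bases around the summit on the plus strand of mm9. The Runx1-only peaks of highest Runx1 enrichment lay on tandem and many-copy sequence. The first lines give 3 of the strongest with a Runx motif in the window, in which capitals mark TGTGGT or ACCACA. The peak nearest to Erich2, at chr2:70365273-70365422, held 5 motif copies because its 26 bp unit was repeated, and those nearest to Tfec, at chr6:16772418-16772567, and Irs4, at chrX:138060492-138060641, were runs of CA with the motif inside or beside the run. The peak nearest to Aph1c, in an exon of Rab8b, is not printed, although its fold of 7.01 equalled that of the Tfec peak and was above the 6.71 of the Irs4 peak.
Erich2: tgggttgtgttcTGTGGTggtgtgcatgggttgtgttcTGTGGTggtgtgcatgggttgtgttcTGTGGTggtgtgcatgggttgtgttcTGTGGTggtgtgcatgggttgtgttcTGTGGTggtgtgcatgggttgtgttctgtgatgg
Tfec: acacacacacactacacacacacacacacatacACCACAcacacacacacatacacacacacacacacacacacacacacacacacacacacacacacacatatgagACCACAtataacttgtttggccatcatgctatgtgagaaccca
Irs4: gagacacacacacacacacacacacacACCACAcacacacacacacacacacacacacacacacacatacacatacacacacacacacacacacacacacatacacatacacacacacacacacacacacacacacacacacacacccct
The 2 strongest without the motif follow, the peak nearest to Oxr1 at chr15:41223122-41223271, a run of a 10 bp unit, and the peak nearest to Gm6578 at chr6:12214342-12214491, whose 31-base words occurred a median of 1455 times in the genome.
Oxr1: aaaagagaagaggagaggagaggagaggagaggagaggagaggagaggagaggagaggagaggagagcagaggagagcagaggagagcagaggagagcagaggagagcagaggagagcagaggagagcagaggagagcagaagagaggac
Gm6578: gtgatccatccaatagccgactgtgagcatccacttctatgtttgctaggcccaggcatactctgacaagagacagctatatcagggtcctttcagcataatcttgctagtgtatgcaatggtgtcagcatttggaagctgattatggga
Next are members of the 3 most common groups of related sequences. Each is the member of highest fold among those that hold the most shared 21-base word of its group, marked in capitals, and a minority of each group held that word. They were nearest to Themis (chr10:28461932-28462081), Fam84a (chr12:14450099-14450248) and Nsun6 (chr2:15298851-15299000).
Themis: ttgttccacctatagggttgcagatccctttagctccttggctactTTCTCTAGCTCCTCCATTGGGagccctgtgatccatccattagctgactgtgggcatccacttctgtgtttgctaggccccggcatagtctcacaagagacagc
Fam84a: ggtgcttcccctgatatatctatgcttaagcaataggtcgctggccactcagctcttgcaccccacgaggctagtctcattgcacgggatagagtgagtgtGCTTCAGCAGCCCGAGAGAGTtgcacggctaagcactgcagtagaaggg
Nsun6: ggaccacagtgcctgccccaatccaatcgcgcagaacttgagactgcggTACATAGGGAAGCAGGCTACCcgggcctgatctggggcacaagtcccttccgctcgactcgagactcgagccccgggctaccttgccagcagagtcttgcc
A minority lay on sequence that was single-copy by exact words, and 5 of those are shown because the later results turn on them. The Arid4a and Fam117a windows among them share a stretch of nearly the same letters, on opposite strands, which holds the marked Runx motif. Capitals mark the Runx motif in the peaks within Vsnl1 (chr12:11399432-11399581), Arid4a (chr12:72152308-72152457) and Kif26b (chr1:180530636-180530785), all on chromatin that closed without Runx1, and in the peak nearest to Fam117a (chr11:95192112-95192261), on chromatin that stayed open. In the peak nearest to B3gnt3 (chr8:74226886-74227035), on chromatin that opened without Runx1, capitals mark TGACTCA, the site bound by AP-1 (Fos and Jun proteins).
Vsnl1: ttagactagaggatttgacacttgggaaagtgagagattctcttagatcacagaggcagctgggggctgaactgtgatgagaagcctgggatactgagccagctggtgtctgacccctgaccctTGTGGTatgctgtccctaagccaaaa
Arid4a: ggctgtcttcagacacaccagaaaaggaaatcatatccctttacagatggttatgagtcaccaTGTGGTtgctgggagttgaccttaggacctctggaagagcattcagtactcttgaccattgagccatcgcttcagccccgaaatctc
Kif26b: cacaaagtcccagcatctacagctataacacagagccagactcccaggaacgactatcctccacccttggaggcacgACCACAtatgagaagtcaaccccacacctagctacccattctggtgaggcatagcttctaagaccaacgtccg
Fam117a: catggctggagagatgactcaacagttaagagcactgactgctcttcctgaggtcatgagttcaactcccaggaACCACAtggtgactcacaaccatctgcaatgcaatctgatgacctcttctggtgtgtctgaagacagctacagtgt
B3gnt3: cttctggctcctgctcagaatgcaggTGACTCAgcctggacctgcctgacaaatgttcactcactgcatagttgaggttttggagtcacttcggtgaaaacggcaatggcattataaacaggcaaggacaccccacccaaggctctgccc
The group representatives and the Fam117a, Kif26b and B3gnt3 peaks were chosen after their values were seen.

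The Runx1-only peaks were weaker and narrower than the Runx1 peaks with Runx2 in both lines. Their median fold enrichment over local background was 4.09, with a range of 2.10 to 7.88, against 4.96 and a range of 1.96 to 13.9. Their median -log10 q was 3.70 against 6.03, and their median width was 133 bp against 228 bp, with 110 bp as the least width in both. The ranges overlapped widely, and what set the classes apart was the upper end: Runx1-only peaks made up 51.6% of all Runx1 peaks in the lowest quartile of fold, 48.0% in the next, 34.2% in the one above and 8.85% in the highest. The number of reads under the summit, recovered from the deposited fold and p-value, had a median of 14 in Runx1-only peaks (95% interval of the median 14 to 14). It was 19 (18 to 19) where Runx2 was present in both lines. For a single peak of 14 reads, counting error alone gives an exact 95% Poisson interval of 7.65 to 23.5, and for one of 19 reads 11.4 to 29.7. The peak lists hold no values per replicate, so the intervals given for shares of peaks are 95% Wilson intervals, and Newcombe intervals for differences, and they cover counting error over peaks and not the spread between cultures. Neighbouring peaks and copies of a repeat share sequence and are not independent, which makes these intervals too narrow.

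Most Runx1-only peaks lay on sequence that the genome holds many times over. For each peak on an assembled chromosome, the copy number was the median, over all of its 31-base words, of how often the word occurs exactly in mm9 on either strand. It was 1941 in the 3565 Runx1-only peaks (95% interval of the median 1827 to 2199) and 1 in the 5114 Runx1 peaks with Runx2 in both lines. A peak was called tandem where at least 70% of its bases matched the bases up to 60 bp further on, and otherwise high-copy from 10 copies and single-copy at 1. By these limits, set after the data were seen, 2774 Runx1-only peaks (77.8%) were high-copy, 526 (14.8%) tandem, 73 (2.05%) in between and 192 (5.39%) single-copy. Where Runx2 was present in both lines the order was turned around, with 55 of 5114 high-copy (1.08%) and 4816 single-copy (94.2%). The high-copy shares differed by 76.7 points (75.3 to 78.1). The remaining 88 Runx1-only peaks were on sequence not placed on a chromosome, 57 of them on unplaced pieces of chromosome Y, and were left out wherever sequence or position was used. The copy number belonged to the peaks and less to their surroundings, since windows of equal length 2000 bp to the left and to the right had a median copy number of 1 and were at 1 copy in 65.9% and 67.0% of cases.

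**Figure D1:**
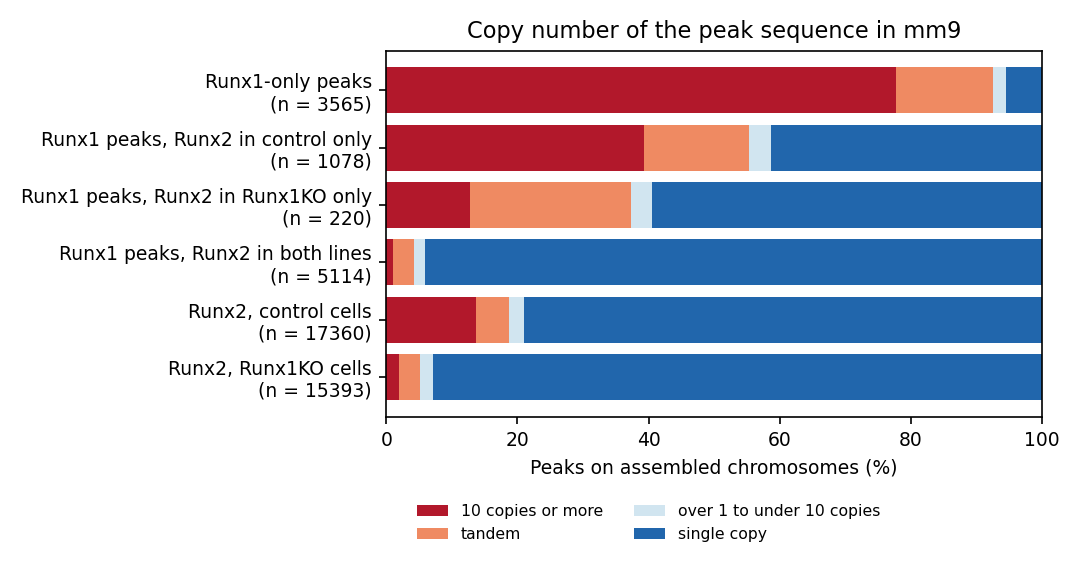
Share of peaks (%, horizontal axis) by copy number of the peak sequence in mm9, for the 4 classes of Runx1 peaks and for the whole Runx2 lists of control and Runx1KO cells, with the number of peaks on assembled chromosomes at each bar. High-copy sequence made up 77.8% of Runx1-only peaks, 39.3% of those with Runx2 in control cells alone, 12.7% of those with Runx2 in Runx1KO cells alone and 1.08% of those with Runx2 in both.

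High-copy sequence was also found in the Runx2 list of control cells, where it made up 2366 of 17360 peaks (13.6%), but in 286 of 15393 peaks (1.86%) of the Runx2 list of Runx1KO cells. That difference was 11.8 points (11.2 to 12.3). Among Runx2 peaks of control cells that overlapped neither a Runx1 peak nor a Runx2 peak of Runx1KO cells, 1819 of 5517 (33.0%) were high-copy, against 132 of 4508 (2.93%) among Runx2 peaks found in Runx1KO cells alone. High-copy peaks were thus more frequent in both lists from control cells than in the list from Runx1KO cells. Per the methods, the authors removed ChIP-seq peaks that overlapped those given by the Runx1 antibody in Runx1KO cells, a list not used here. Whether this was done for the Runx2 lists as well is not stated, and its part in these shares was not tested. How reads with several matching positions were treated in the alignment is not given in the sources used here, and its part in these shares was not tested.

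The high-copy Runx1-only peaks fell into few groups of related sequence. Linking peaks that shared at least 20 words of 21 bases put 2670 of the 2774 into 62 groups, and 18 groups of 10 or more members held 2509, while 104 peaks had no partner. The largest group held 1553 peaks, 56.0% of the high-copy ones, with a median copy number of 9888. Its most shared word, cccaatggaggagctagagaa, was present in 421 members and occurs 49176 times in the genome. The next 4 groups held 231, 182, 167 and 152 peaks. The Gm6578 peak printed above and the peak nearest to Trib2, both among the 10 of highest fold, belonged to the largest group. Peaks of the other classes carried the same sequences: 1004 Runx2 peaks of control cells shared at least 20 words with the largest group, against 56 in Runx1KO cells, 221 Runx1 peaks with Runx2 in control cells alone and 5 with Runx2 in both lines. In the next 4 groups the Runx2 peaks numbered 175, 270, 191 and 85 in control cells and 14, 17, 8 and 7 in Runx1KO cells. No repeat annotation was used, so the groups are given by sequence and not by name. Of the 526 tandem peaks, 54 had a unit of 2 bp and 46 of 6 bp, and CA or TG made up most of 63 of the 111 peaks with units of 2, 4 or 6 bp.

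The Runx motif was no more frequent in the Runx1-only peaks than beside them. TGTGGT or its complement ACCACA was present in 336 of 3565 peaks (9.42%), against 10.5% and 9.93% of equally long windows 2000 bp to either side. Of the Runx1 peaks with Runx2 in both lines, 50.2% held it, against 19.7% and 19.1% of their side windows. The difference between the classes was -40.8 points (-42.4 to -39.1), and since the latter peaks are wider it was also taken in 200 bp around every summit, where it was -34.9 points, from 13.0% and 47.9%. The longer TGTGGTT, which contains the shorter motif, was present in 1.77% of Runx1-only peaks and in 4.99% and 3.81% of their side windows, against 27.4% where Runx2 was present in both lines. The shorter TGTGGT was present in 31.5% of Runx1 peaks with Runx2 in control cells alone and 25.9% with Runx2 in Runx1KO cells alone.

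The motif divided the Runx1-only peaks by copy number. High-copy peaks held TGTGGT in 206 of 2774 cases (7.43%), below their side windows at 11.2% and 9.81%, and tandem peaks in 58 of 526 (11.03%). Single-copy peaks held it in 56 of 192 (29.2%), above their side windows at 5.73% and 14.1%. Single-copy peaks with Runx2 in both lines were higher still at 50.3%, a difference of -21.2 points (-27.3 to -14.2). With Runx2 in control cells alone the single-copy share was 60.9% of 445 peaks, and with Runx2 in Runx1KO cells alone 29.8% of 131. The latter share was near that of the single-copy Runx1-only peaks, with a difference of -0.60 points (-10.8 to 9.26). Of the 55 high-copy peaks with Runx2 in both lines, 21 held TGTGGT (38.2%, 26.5 to 51.4). Within the largest sequence group 105 of 1553 peaks (6.76%) held the motif, and in the group of 231 none did.

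Around the summits, single-copy Runx1-only peaks had a central rise in the motif and high-copy ones did not. In both 50 bp bins next to the summit, 14.1% of the single-copy peaks held TGTGGT, against 19.9% and 21.5% of the Runx1 peaks with Runx2 in both lines. In the high-copy peaks the shares were 2.49% and 2.24%, below the 3.32% that they had 475 bp away. At that distance the single-copy peaks were at 3.65% and the peaks with Runx2 in both lines at 3.72%.

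**Figure D2:**
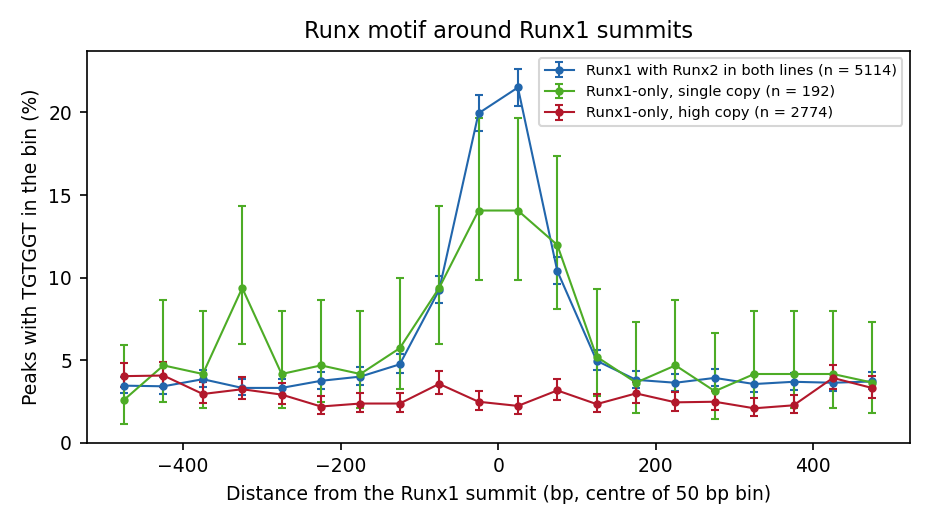
Share of peaks with TGTGGT on either strand (%, vertical axis) in 50 bp bins by distance from the Runx1 summit (bp), with 95% Wilson intervals as bars. The peaks with Runx2 in both lines (n = 5114) reach 21.5% and the single-copy Runx1-only peaks (n = 192) 14.1% at the summit, while the high-copy Runx1-only peaks (n = 2774) stay low throughout.

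Other motifs differed in how they followed copy number. The AP-1 motif TGACTCA was present in 33 of 3565 Runx1-only peaks (0.926%), below their side windows at 1.91% and 1.77%, and in 16.4% of the peaks with Runx2 in both lines. Among single-copy peaks it was present in 26 of 192 (13.5%) against 17.3%, a difference of -3.78 points whose interval (-8.05 to 1.88) includes 0. Going the other way, CCAAT, the motif of NF-Y, was present in 33.2% of Runx1-only peaks and 25.1% of those with Runx2 in both lines. It was present in 41.2% of the high-copy Runx1-only peaks and in 13.0% of the single-copy ones, and the most shared word of the largest sequence group contains these letters. The Zeb motif CAGGTG was present in 11.2% of the high-copy Runx1-only peaks, above their side windows at 7.21% and 7.14%, and in 9.90% of the single-copy ones, against 14.1% of the peaks with Runx2 in both lines. CCGGAAG, a motif of Ets proteins, was present in 1.15% and 0.521% of these high-copy and single-copy peaks, against 8.70%. Letters that match a motif are a description of the sequence and not evidence of a bound protein.

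The Runx1-only peaks lay almost entirely outside open chromatin. ATAC-seq marks chromatin that an enzyme can reach, and the deposited regions fall into 3 lists, closing (lost in Runx1KO cells), opening (gained) and stable. Of the 3653 Runx1-only peaks, 159 (4.35%) overlapped an ATAC-seq peak of any list, against 4573 of 5198 (88.0%) with Runx2 in both lines, a difference of -83.6 points (-84.7 to -82.5). Shares in between, 33.5% and 49.4%, were found for Runx1 peaks with Runx2 in control cells alone and in Runx1KO cells alone. The difference was of like size at every peak strength. From the lowest to the highest quartile of Runx1 fold, 5.39%, 4.00%, 3.02% and 5.48% of Runx1-only peaks were open, against 87.0%, 87.9%, 86.7% and 89.2% with Runx2 in both lines, and weighting over the quartiles gave -83.2 points.

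**Figure D3:**
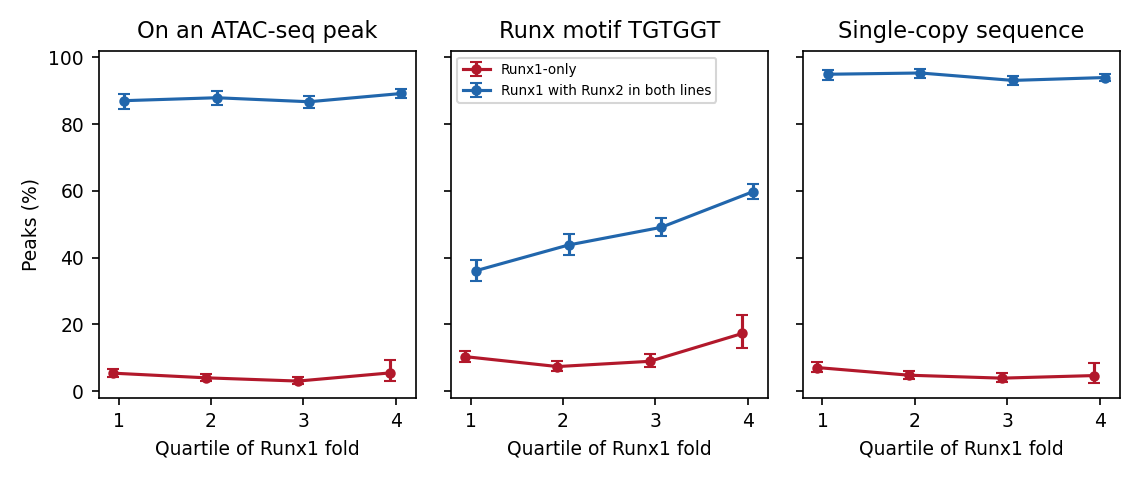
Share of peaks (%, vertical axes) on an ATAC-seq peak, with TGTGGT and on single-copy sequence, by quartile of Runx1 fold from lowest (1) to highest (4), for Runx1-only peaks and Runx1 peaks with Runx2 in both lines, with 95% Wilson intervals. In the highest quartile 5.48% of the Runx1-only peaks are open against 89.2%, and 17.3% hold the motif against 59.8%.

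Openness followed the copy number. Of the high-copy Runx1-only peaks 17 of 2774 were open (0.613%), of the tandem peaks 15 of 526, of those in between 8 of 73, and of the single-copy peaks 119 of 192 (62.0%). The ATAC-seq lists themselves held high-copy sequence in 0.832% of 55649 peaks, measured in 150 bp around each peak's middle, so an open region on high-copy sequence was seldom called in these files. Whether such regions were closed or were not called for want of reads was not tested. On single-copy sequence, on which 96.4% of the ATAC-seq peaks lay, fewer Runx1-only peaks were open than peaks with Runx2 in both lines, of which 4472 of 4816 were (92.9%). That difference was -30.9 points (-37.9 to -24.3).

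Of the 159 open Runx1-only peaks, 32 were on closing chromatin, 10 on opening and 117 on stable chromatin. The closing share of 20.1% was near the 18.8% of open peaks with Runx2 in both lines, with a difference of 1.32 points and an interval of -4.29 to 8.31. It was below the 40.8% of open Runx1 peaks with Runx2 in control cells alone, by -20.7 points (-28.2 to -12.2). The Runx motif separated closing from stable Runx1-only peaks, since 17 of 32 (53.1%) closing ones held TGTGGT against 20 of 117 (17.1%), a difference of 36.0 points (17.6 to 53.0). Closing Runx1-only peaks were also less often at promoters, 3 of 32 against 35 of 117 (-20.5 points, -31.3 to -3.89). The peaks with Runx2 in both lines had the motif in 75.3% of closing and 41.7% of stable regions. Of the 10 opening Runx1-only peaks 2 held the motif.

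Runx1-only peaks lay farther from transcription starts than the Runx1 peaks with Runx2 in both lines. A promoter, taken as 1000 bp around an annotated transcription start, was reached by 112 of 3565 (3.14%), against 45.8% of the Runx1 peaks with Runx2 in both lines, a difference of -42.6 points (-44.1 to -41.1). Introns held 28.9% and intergenic sequence 67.6%, against 23.5% and 29.1%, and the median distance to a start was 40629 bp against 2105 bp. Of the single-copy Runx1-only peaks, 39 of 192 (20.3%) were at promoters, a share between those of the 2 classes, and 80 (41.7%) were in introns, a share above both. Distance to Runx2 was large as well. The nearest Runx2 peak of either line was a median of 78833 bp away, 1640 Runx1-only peaks had none within 100 kb, 234 had one within 1000 bp and 95 within 200 bp.

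By chromosome, the Runx1-only peaks were denser on X than on any autosome, with 328 peaks or 1.97 per Mb. On the autosomes the density ran from 0.862 per Mb on chromosome 9 to 1.67 on chromosome 5, with a median of 1.31. The Runx1 peaks with Runx2 in both lines were sparser on X than on any autosome, at 0.528 per Mb against 1.06 to 3.798. Runx1-only peaks were therefore 67.4% of all Runx1 peaks on X and from 18.3% (chromosome 19) to 46.5% (chromosome 14) on the autosomes. Of the 328 peaks on X, 320 were high-copy and 2 single-copy, and the largest sequence group had 180 members there.

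**Figure D4:**
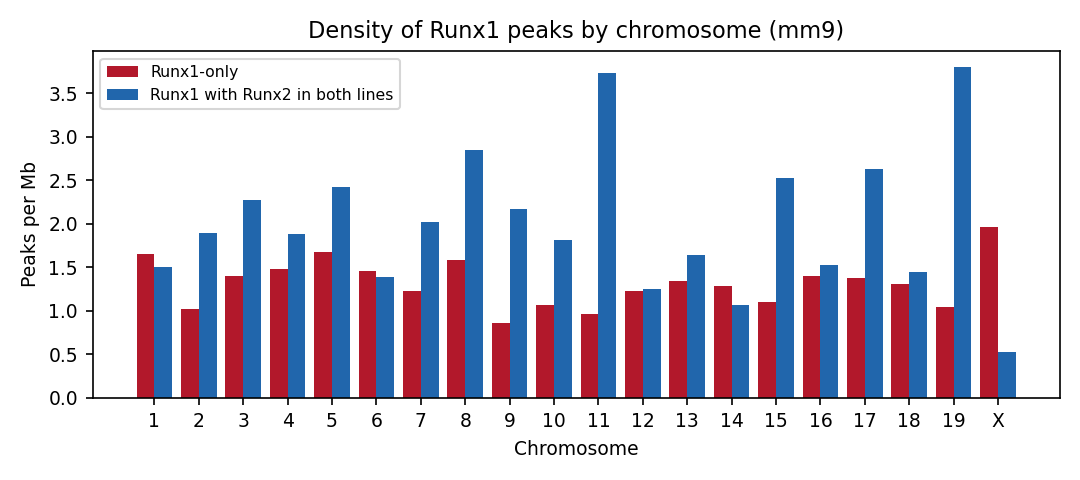
Density of Runx1-only peaks and of Runx1 peaks with Runx2 in both lines (peaks per Mb, vertical axis) on each autosome and on X in mm9. On X the Runx1-only density of 1.97 stands above the 0.528 of the peaks with Runx2 in both lines.

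The rule needs 1 bp of overlap, and peaks on either side of that limit were much alike. The 95 Runx1-only peaks within 200 bp of a Runx2 peak were open in 24.2% of cases, held TGTGGT in 15.2% and included 23 single-copy peaks. The 77 Runx1 peaks just inside, which overlapped Runx2 by at most 50 bp, were open in 24.7%, held the motif in 14.5% and included 24 single-copy peaks. Such peaks were few, as the 6534 overlapping Runx1 peaks had a median overlap of 197 bp.

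Single-copy sequence ties a read to 1 position, and the 192 Runx1-only peaks on it were spread over the genome. They had 163 different nearest genes within 100 kb, and 165 of them had a q of at most 0.01. Open and closed ones were of like strength, with a median fold of 3.83 in the 119 open peaks and 4.09 in the 73 others. Their median distance to a Runx2 peak was 9512 bp, and 23 had a Runx2 peak within 200 bp. Copy number was counted from exact words, so diverged relatives of a repeat can stand among the single-copy peaks. The printed Arid4a and Fam117a windows, alike around the Runx motif, may be such relatives.

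Expression was read from RNA-seq as TPM, a level per gene length and library, and tested on log2(TPM+1). The cells of each line were cultured in triplicate, and the p-values measure the spread between these cultures. Runx1 itself had levels of 18.7, 15.6 and 17.9 TPM in control cells, against 30.3, 30.1 and 28.5 in Runx1KO cells. The value sums the reads of all exons while 1 exon was removed, so it does not check the label of these libraries. A tandem Runx1-only peak lay 67796 bp from the start of Runx1. Runx2 was at 6.0, 4.9 and 5.5 TPM in control cells and 3.9, 3.7 and 3.6 in Runx1KO cells. Of metanephric mesenchyme markers, Pax2, Hoxa11, Osr1, Sall1, Eya1, Gdnf and Vim were present in control cells, whereas Six2, Wt1, Hoxd11 and Cited1 were at or near 0. Of 4 endothelial and 4 blood markers, Pecam1, Tek, Kdr, Ptprc and Itgam were at or near 0 in all libraries of both lines. The endothelial cadherin Cdh5 was at 2.8 to 4.4 TPM in control and 1.0 to 1.2 in Runx1KO cells, and the macrophage marker Cd68 at 1.9 to 2.5 and 1.8 to 2.2. Spi1, a transcription factor of blood cells, was at 0.0, 0.0 and 0.1 TPM in control cells and at 22.6, 26.4 and 26.8 in Runx1KO cells, and the part of other cell types in any result was not tested. In bulk RNA, fewer cells of a type and less RNA per cell cannot be told apart.

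By the wide assignment given below, genes around Runx1-only peaks were called higher in Runx1KO cells about as often as all genes, and lower more often. Of 13067 genes tested with limma, 666 were called lower in Runx1KO (5.1%) and 1033 higher (7.91%), at an adjusted p under 0.05 and a change of over 1 on the log2 scale. Assigning each Runx1-only peak to the genes whose regulatory domain holds it (5 kb upstream, 1 kb downstream, extended by up to 1000 kb to the next gene) gave 1777 tested genes. Of these, 162 were lower (9.12%) and 137 higher (7.71%), with a median change of -0.08 beside -0.06 for all genes placed. For high-copy peaks the lower share was 9.87% of 1165 genes, for single-copy peaks 8.37% of 239, and for Runx1 peaks with Runx2 in both lines 5.68% of 4511. The differences between these shares were not tested. Closer to the peaks, of 90 tested genes with a start within 5 kb of a Runx1-only peak, 3 were lower (3.33%) and 11 higher (12.2%). Of 23 tested genes nearest to closing Runx1-only peaks, 3 were lower and 0 higher, at 4 tested genes nearest to opening ones 1 was lower and 1 higher, and of 81 at stable ones 5 were lower and 6 higher.

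Among the genes nearest to single-copy Runx1-only peaks, 5 that fell are described here, 4 of them among the 10 largest falls and 1, Gulp1, for its closing peak. Sulf2, an enzyme that trims sulfate from extracellular heparan sulfate, was at 53.5, 53.4 and 51.9 TPM in control cells and 0.4, 0.3 and 0.4 in Runx1KO cells. It fell by 5.30 on the log2 scale (SE 0.05, adjusted p = 2.71e-09). Its intron held a single-copy Runx1-only peak at chr2:165953754-165953877, on stable chromatin and without TGTGGT. Elfn1, a membrane protein of synapses, was at 78.6, 67.8 and 76.8 TPM in control cells and 1.8, 2.3 and 2.1 in Runx1KO cells, and its peak lay in an intron at chr5:140441999-140442188. This peak was not open, and with 69.9% of its bases matching those further on it was just under the limit for tandem sequence.

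The other 3 falls lay beside peaks on chromatin that closed. Kif26b, a kinesin-related protein needed when the kidney forms, was at 16.2, 18.4 and 20.7 TPM in control cells and 0.1 in all 3 Runx1KO libraries, and fell by 4.14 (SE 0.09, adjusted p = 5.98e-08). Its intronic Runx1-only peak, printed above, held the Runx motif in single-copy sequence, and the nearest Runx2 peak was 311 bp away. A further closing peak with the motif lay 468915 bp from its start, inside Smyd3. Gulp1, an adaptor for the engulfment of dying cells, was at 63.5, 54.1 and 64.3 TPM in control cells and 9.9, 10.1 and 10.8 in Runx1KO cells, and its intronic closing peak at chr1:44637303-44637445 also held the motif. Ntn1, the guidance protein netrin-1, was at 80.5, 75.5 and 80 TPM in control cells and 8.9, 7.6 and 9.3 in Runx1KO cells, next to a closing peak without the motif at an annotated start inside the gene. Kif26b and Gulp1 each also had 1 Runx1 peak with Runx2 in both lines, so the Runx1-only peaks were not the sole Runx1 peaks nearest to them.

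Some genes nearest to single-copy Runx1-only peaks rose. Of 127 tested genes nearest to such a peak within 100 kb, 8 were called higher (6.30%), beside 7.80% of all placed genes. Called lower were 13 (10.2%), beside 5.12%, and these differences were not tested. Itgb4, the integrin beta chain of the junctions that hold epithelial cells to their base, was at 0.6, 0.5 and 0.5 TPM in control cells and 64.3, 60 and 61.3 in Runx1KO cells, a change of 5.36 on the log2 scale (SE 0.05, adjusted p = 2.71e-09). The peak nearest to it, at chr11:115816176-115816285, lay on stable chromatin inside the neighbouring gene Sap30bp. B3gnt3, which adds N-acetylglucosamine to sugar chains, was at 0.5, 0.5 and 0.2 TPM in control cells and 113.7, 107.9 and 114.0 in Runx1KO cells, with an opening Runx1-only peak 1273 bp from its start. Pax2, a transcription factor of the nephron lineage, had an open Runx1-only peak at its promoter, 272 bp from a Runx2 peak. A tandem Runx1-only peak and 2 Runx1 peaks with Runx2 in both lines were also nearest to Pax2. This gene was at 315.7, 313.7 and 310.2 TPM in control cells and 478.1, 501.0 and 430.9 in Runx1KO cells, a change of 0.58 (SE 0.05, adjusted p = 6.21e-05), which is under the size set for a call.

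**Figure D5:**
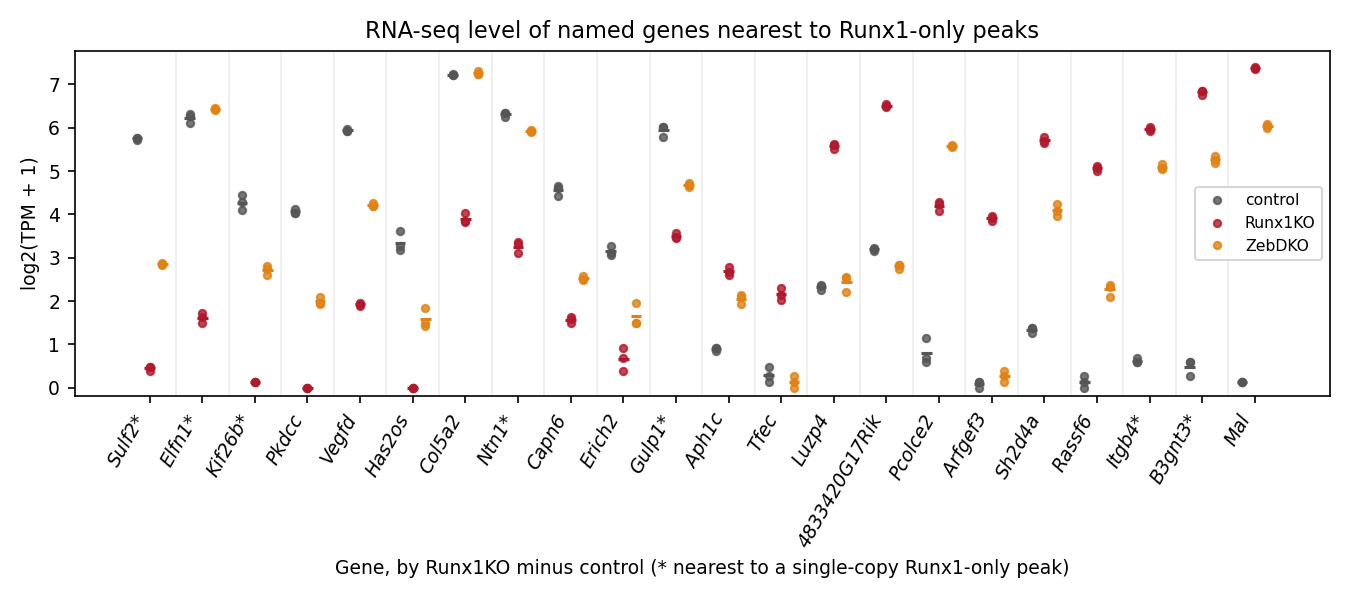
RNA-seq level as log2(TPM+1) (vertical axis) of the named genes reported here that were called in Runx1KO cells, each point a library (3 per line) and each bar the mean, for control, Runx1KO and ZebDKO cells, ordered by the Runx1KO minus control difference. Stars mark genes nearest to a single-copy Runx1-only peak, and the control and Runx1KO points of every gene lie apart.

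The remaining large changes were in genes whose starts were nearest, within 100 kb, to Runx1-only peaks on high-copy or tandem sequence. None of these peaks was open. Their distance to the start ran from 1901 bp at 4833420G17Rik to 99730 bp at Has2os. A Runx2 peak lay 85 bp from the tandem peak at Pkdcc and 500 bp from the peak at Vegfd. Falling genes nearest to high-copy peaks included Col5a2, a fibrillar collagen, from 148.8, 148.1 and 149.9 TPM to 15.3, 13.2 and 13.5. The growth factor Vegfd went from 59.4, 60.1 and 61.4 TPM to 2.9, 2.8 and 2.7. Capn6, a calpain without protease activity, went from 23.5, 20.5 and 24.2 TPM to 2.1, 1.8 and 2.0. Pkdcc, a secreted kinase, at 15.4 to 16.5 TPM in control cells, was listed at 0 in all 3 Runx1KO libraries. So was Has2os, an antisense RNA at 8.0 to 11.3 TPM, whose reads cannot be told from those of its partner gene because the use of strand in counting is not stated.

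Rising genes of this kind included Mal, a membrane protein of apical transport in epithelia, from 0.1 TPM in all 3 control libraries to 168.8, 163.9 and 166.7 in Runx1KO cells. Its nearest Runx1-only peak was a high-copy one 19532 bp from the start. Rassf6, a Ras-association protein, rose from 0.0 to 0.2 TPM to 31.3 to 33.8, Sh2d4a, an SH2 adaptor, from 1.4 to 1.6 TPM to 48.8 to 54.0, and Pcolce2, a helper of procollagen processing, from 0.5 to 1.2 TPM to 16 to 18.4. Arfgef3 (0.0 to 0.1 TPM in control cells, 13.4 to 14.7 in Runx1KO cells), Luzp4 (3.8 to 4.2, 44.5 to 48.3) and 4833420G17Rik (7.9 to 8.3, 87.6 to 93.0) were also among the 10 largest rises. Being picked for the largest changes, all of these genes had control and Runx1KO values that did not overlap.

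Of the genes nearest to the 10 Runx1-only peaks of highest fold, all on tandem or high-copy sequence, 3 were called. Among all genes tested, 5.1% were called lower and 7.91% higher. The set of 10 ends within a tie. The Irs4 peak, left out, equalled those of Trib2, Tmem178 and Galr1 at a fold of 6.71 and a -log10 q of 10.3. Erich2 was at 7.7, 8.6 and 7.4 TPM in control cells and 0.6, 0.9 and 0.3 in Runx1KO cells, and its tandem peak with 5 motif copies lay 18472 bp from its start. Aph1c, a subunit of the gamma-secretase complex, rose from 0.8 to 0.9 TPM to 5.1 to 5.9, and Tfec, a transcription factor, from 0.1 to 0.4 TPM to 3.1 to 3.9. Cdc123 was at 32.1 to 32.8 TPM against 27.4 to 28.0, Ccdc90b at 9.4 to 10.6 against 7.3 to 8.9, and Oxr1 at 11 to 12.3 against 12 to 12.4, none past the size set for a call. Gm6578, Trib2, Tmem178 and Galr1 were at 0.6 TPM or less in every control and Runx1KO library and were not tested.

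ZebDKO cells, compared with the same 3 control libraries, are given side by side for the genes with a single-copy peak. Sulf2 was at 6.1, 6.4 and 6.2 TPM in ZebDKO cells, Kif26b at 5.1, 6.0 and 5.7, and Gulp1 at 25.3, 24.7 and 24, all between the control and the Runx1KO levels. Elfn1 was at 86.9, 84.2 and 85.9 TPM, and Ntn1 at 61.0, 58.9 and 59.8. Itgb4 was at 32.4, 35.0 and 32.3 TPM and B3gnt3 at 39.7, 35.7 and 37.5, again between the other lines. Since both comparisons use the same controls, no test of their overlap was made.

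Of all 22446 placed genes, 1579 had a Runx1-only peak nearest to their start within 100 kb, and whether the listed gene groups differ from that share was not tested. In the Runx family and its co-repressors 1 of 10 genes had one (Runx1), of metanephric mesenchyme and nephron progenitor genes 3 of 17 (Meox1, Pax2, Tcf21), of mesenchymal genes 3 of 26 (Col5a2, Fbn1, Snai2), and of epithelial genes 1 of 34 (Itgb4). Fosl2 was the sole one of 13 AP-1 genes and Ltbp3, which holds TGF-beta in the matrix, the sole one of 26 TGF-beta and activin genes. Col5a2 was called lower and Itgb4 higher, and the others tested were not called. Among whole lists 10 of 19 tested mesenchymal genes were lower and 19 of 22 tested epithelial genes higher, whether or not a Runx1-only peak was near. Ribosomal protein genes had a Runx1-only peak nearest in 2 of 104 cases, histone genes in 2 of 69, mitochondrial ribosomal genes in 6 of 78 and Zfp genes in 25 of 389, with 1 of 17 tested Zfp genes lower and 1 higher. Of the endothelial markers, Cdh5 and Kdr had a Runx1-only peak nearest, and Cdh5 was at 4.0, 2.8 and 4.4 TPM in control and 1.2, 1.2 and 1.0 in Runx1KO cells. No gene of the short blood and ureteric bud marker lists did.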

How the data were processed

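Samples were mK4 control, Runx1KO and ZebDKO cells, 3 per group. Per the methods, Trim Galore removed adapters, STAR placed reads on mm9 and sambamba dropped duplicates. The authors called peaks with MACS2, naming no input control, on combined replicates, and removed peaks seen with the Runx1 antibody in Runx1KO cells. Final sets are said to hold peaks found in 2 or more of the 3 replicates. The methods name broad peaks at a q of 0.01, whereas the deposited lists have narrow-peak columns and hold q-values above that. Peak names in the deposited Runx1 list carry 1 library name, so whether pooled reads or 1 library lie behind it cannot be told from the file. The deposited ChIP-seq values are the authors' fold enrichment, -log10 p and -log10 q, and the score is 10 times the -log10 q. The ATAC-seq lists, split by the authors into closing, opening and stable, also hold a log2 fold change and an unlabelled -log10 value, both the authors' own comparison and not used. The deposited TPM tables (9 and 6 libraries) came from featureCounts 1.6.2 on RefSeq genes, and the authors' own gene comparison, from DESeq2 1.26.0, was not used.

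Overlap needed at least 1 bp. Reads at a summit were recovered as the whole number and background that give both the deposited fold and p. Sequences were read from mm9 with pysam 0.24.0, and genes placed with GENCODE and RefSeq names (22446 of 24953 genes, 2011 through synonyms). Genes that reached 1 TPM in 3 libraries or more entered a limma 3.58.1 fit (R 4.3.3) of log2(TPM+1), with a trend and Benjamini-Hochberg adjustment. The methods give a lower bound of reads per RNA-seq sample, but the depth of each library is not known, since TPM keeps no read number. The tests ran first on simulated data. Python 3.11.15, numpy 2.4.6, scipy 1.17.1 and pandas 2.3.3 were used. Named genes were those nearest to the 10 peaks of highest fold, the 10 largest falls and rises within 100 kb, and called genes at closing or opening peaks. Some genes that these rules or lists name are not reported here. The members and gene lists were chosen with earlier results of these data known.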

Additional observations from a re-analysis of the deposited data

How the results depend on the processing

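The number of Runx1-only peaks was 3332 to 3832 under other rules of overlap or q, the lowest being those of the 3653 that met the q of 0.01 stated in the methods, and 192 on single-copy sequence alone, a restriction chosen after seeing the data. On that sequence the differences from peaks with Runx2 in both lines were smaller, at -30.9 points for open chromatin, -21.2 for the Runx motif and -27.0 for promoters, with the same sign. Genes called lower near Runx1-only peaks numbered 162, or 58 for the nearest start within 100 kb, 3 for starts within 5 kb and 20 for single-copy peaks. Genes called higher numbered 137, or 54, 11 and 18, and fewer genes enter under these rules. The shares moved as well for starts within 5 kb. There 3.33% were lower, against 9.12% by the main rule and 5.12% of all placed genes. The share higher was 12.2%, against 7.71% by the main rule and 7.80% of all placed genes. Leaving out each library gave 159 to 162 lower and 135 to 139 higher. Of 72 alternatives 65 were counted as giving the same result. For numbers of peaks or genes this meant a size within the limits set. For differences of shares it meant the same sign, with no difference still inside or still outside the interval. No limit on size was set for those differences. Adding the replicate number as a block term gave 162 lower and 137 higher, and deviations of libraries with equal numbers correlated at -0.05, 0.01 and 0.00, so the numbers were not taken as pairs. All 24 called named genes kept their call in each fit that held them, and Tfec (filter of 5 TPM, 6-library table) and Has2os (6-library table) dropped out of some. Median-ratio scaling moved the median of all genes from -0.06 to -0.00. Closing peaks of larger change were to be taken alone, which was not run, because it needs the authors' comparison. Summits rested on a median of 14 reads, and the peak lists hold no values per replicate.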
